A study of Mus musculus with 2 samples.

Results

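The genes that encode the lipid- and starch-digesting enzymes of the exocrine pancreas were analyzed in the acinar pancreas tissue that lay in 2 mouse tumor sections. They were Pnlip, Pnliprp2, Cel, Clps and Amy2a5, 5 of the 19465 genes counted. These genes were chosen on measured values of the same 2 libraries, since Pnlip was seen to differ most between them relative to the pancreatic protease genes. The differences between libraries are therefore given as a description.

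The samples were orthotopic allograft tumors, grown in the pancreas of mice after injection of KPC cells, a mouse pancreatic cancer line. One library came from a section labelled KPC-shZEB1, of cells with a knockdown of Zeb1, and one from a section labelled KPC-shV, of cells with the control vector. The protocol gives an age of 4 to 6 weeks for the mice it used, and lists 2 tumors per group. The age of the mice when the tumors were taken is not stated. Mice of the strains C57BL/6J, BALB/c and NSG were used in the study, and which strain and which tumor each library covers is not stated. According to the paper, the spatial data came from the tumors of its single-cell data, and it describes their hosts as immunocompetent. The tumors came from mice given gemcitabine according to the paper, in both groups, and the labels do not name it. The acinar cells belong to the host, and the knockdown was made only in the injected cells. On probe-based Visium CytAssist slides each barcoded spot reads a patch of tissue in which cells of more than 1 type can lie. The libraries held 2220 and 3552 spots over tissue (KPC-shZEB1 and KPC-shV, in this order throughout), with a median of 59957.5 and 52544.5 unique molecular identifiers (UMIs) per spot, and they shared 1718 spot barcodes. Zeb1 itself was read at 10.8 and 12.4 UMIs per 1000000 UMIs (CPM). The log2 ratio of Zeb1, as KPC-shZEB1 over KPC-shV here and below, was -0.20 (-0.30 to -0.11) over all spots. Outside acinar-rich spots it was 0.29 (0.19 to 0.39), so that Zeb1 was higher there in the section labelled for the knockdown. A spot can hold host cells beside injected cells, so these levels do not measure the knockdown in the injected cells, which was not tested.

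Acinar cells of the pancreas make digestive enzymes, store them in zymogen granules and release them into the ducts after a meal. Pancreatic lipase, the product of Pnlip, splits dietary triglycerides and needs colipase, the product of Clps, to hold it on fat droplets coated with bile salts. Carboxyl ester lipase, from Cel, depends on bile salts and also splits cholesterol and vitamin esters, while pancreatic lipase-related protein 2, from Pnliprp2, acts on galactolipids and phospholipids as well. In rodents Pnliprp2 and Cel are expressed before weaning, and Pnlip mainly from weaning onwards. Amy2a5 encodes an alpha-amylase, which splits starch.

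All 5 genes are protein-coding in GENCODE M21 (GRCm38, the build mm10). Pnlip (ENSMUSG00000046008, chromosome 19, 58652498 to 58681788, plus strand) and Pnliprp2 (ENSMUSG00000025091, chromosome 19, 58759719 to 58777534, plus strand) are neighbors, with Pnliprp1 between them, a gene not analyzed here. Cel (ENSMUSG00000026818) lies on chromosome 2, 28555795 to 28563403, minus strand. Clps (ENSMUSG00000024225) lies on chromosome 17, 28558149 to 28560766, minus strand. Amy2a5 (ENSMUSG00000074268) lies on chromosome 3, 113247178 to 113258837, minus strand, beside other amylase genes. Of the 3666 windows of 50 bases in its longest coding transcript, 57.2% also occur in transcripts of other genes, mostly Amy2a2, Amy2a3 and Amy2a4. Its probe may therefore read these copies too, and its counts are uncertain as a measure of 1 gene. None of the windows of the other 4 transcripts occur in another gene (0 each).

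RefSeq promoters (GRCm38.p6) were matched for 4 of the 5 genes. The 250 bases before the RefSeq start of Pnlip and of Cel are shown because these lipase genes differed between the libraries in opposite directions per protease UMI. For Pnlip this start lies inside the GENCODE span given above, so its window does not lie before that span. Capitals mark CACCTG or CAGGTG (the same E-box read on either strand), TGGGAAA or TTTCCCA (likewise 1 motif on both strands) and TATAAA on the strand of the gene. The first pair are the letters of the E-box and of the TC-box that PTF1, the acinar transcription factor complex, is known to bind. No marked stretches overlap.
Pnlip, chr19:58670115-58670364, plus strand: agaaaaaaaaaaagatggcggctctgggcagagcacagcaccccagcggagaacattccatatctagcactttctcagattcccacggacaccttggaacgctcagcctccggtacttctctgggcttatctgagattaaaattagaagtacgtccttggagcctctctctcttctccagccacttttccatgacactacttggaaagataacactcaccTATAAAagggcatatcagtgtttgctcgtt
Cel, chr2:28563404-28563653, minus strand: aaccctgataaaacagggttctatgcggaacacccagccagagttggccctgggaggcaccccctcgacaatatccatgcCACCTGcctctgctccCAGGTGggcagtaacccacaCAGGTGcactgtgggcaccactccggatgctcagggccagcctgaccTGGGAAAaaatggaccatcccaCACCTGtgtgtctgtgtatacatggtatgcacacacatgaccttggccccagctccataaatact
The window of Cel held 4 E-boxes and 1 TGGGAAA, and that of Pnlip held neither motif (0 of each) but 1 TATAAA. Pnliprp2 held 1 E-box. Amy2a5 held 1 TATAAA and neither of the other motifs. Of all 32851 promoter windows of this length, 17.2% held the E-box, 6.82% TGGGAAA and 7.59% TATAAA. A match describes letters in a window and is no measure of binding.

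To find the pancreas tissue without using the 5 genes, spots were called acinar-rich where 13 protease genes (trypsinogens, chymotrypsinogens, elastases and carboxypeptidases) took over 10% of the UMIs. There were 786 such spots in the section labelled KPC-shZEB1 (35.4% of its spots, 95% interval 33.4% to 37.4%) and 322 in the section labelled KPC-shV (9.07%, 8.14% to 10.1%). The sections thus held unequal amounts of pancreas. Acinar-rich spots also differed in depth, with a median of 65339 and 22315 UMIs, and in the median share of protease UMIs, 47.6% and 27.6%. Each condition had 1 library, hence no replicates and no tests, and all intervals (95%) cover counting error only, which is small beside whatever differs between mice or sections. Fewer acinar cells and less RNA per acinar cell cannot be told apart in a spot.

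All 5 genes marked acinar-rich spots in both libraries. Their CPM there was from 54.6-fold (Pnliprp2) to 206-fold (Pnlip) that of the other spots in the section labelled KPC-shZEB1, and from 102-fold (Pnliprp2) to 833-fold (Pnlip) in the section labelled KPC-shV. The acinar-rich spots held 99.3% and 97.5% of all Pnlip UMIs. For Pnliprp2 they held 97.3% and 82.6%.

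Over all spots, each of the 5 genes was higher in the section labelled KPC-shZEB1. Pnlip was read at 7748 and 115 CPM, which is 6.08 as a log2 ratio (6.06 to 6.10). Clps was read at 9158 and 377 CPM (log2 ratio 4.60) and Cel at 12079 and 1131 CPM (3.42). Amy2a5 was read at 85.2 and 8.99 CPM (3.24) and Pnliprp2 at 60.7 and 7.80 CPM (2.96). A log2 ratio over 1 was thus seen for 5 of 5, beside 2.4% of the 15358 genes that had 100 UMIs or more in each library, whose median was -0.48. Acinar-rich spots made up 39.99% of the UMIs of one library and 4.46% of the other, so that the amount of pancreas in the section enters these ratios. With acinar-rich spots left out, the log2 ratios were 4.96 for Pnlip, 3.02 for Clps, 2.11 for Cel, 1.24 for Amy2a5 and 0.93 for Pnliprp2.

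Within acinar-rich spots the 5 genes separated. Pnlip stood at 19234 CPM in the section labelled KPC-shZEB1 and 2503 CPM in the section labelled KPC-shV, so that the log2 ratio was 2.94 (2.92 to 2.96). Clps, which encodes the cofactor of the same enzyme, stood at 22642 and 8005 CPM, a log2 ratio of 1.50 (1.49 to 1.51). For each of the other 3 genes, the levels in both libraries were within 1.5 times of each other. Cel stood at 29838 and 24127 CPM (log2 ratio 0.31, 0.30 to 0.31) and Amy2a5 at 209 and 174 CPM (0.26, 0.18 to 0.34). Pnliprp2 stood at 148 and 144 CPM. Its log2 ratio was 0.03 (-0.06 to 0.12), so that no difference beyond counting error was detected for this gene. By CPM, 2 of the 5 genes thus had a log2 ratio over 1 and 0 one under -1, beside 0.346% and 52.5% of the 6639 genes that had 100 UMIs or more in the acinar-rich spots of each library, whose median was -1.04.

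CPM still depends on how much of a spot is acinar tissue, so each gene was also set against the proteases of the same spots. Per 1000 protease UMIs, acinar-rich spots held 41.9 UMIs of Pnlip in the section labelled KPC-shZEB1 and 8.31 in the section labelled KPC-shV, a 5.04-fold difference (log2 ratio 2.33, 2.31 to 2.36). For Clps the values were 49.3 and 26.6, a 1.86-fold difference (log2 ratio 0.89, 0.88 to 0.90). The remaining 3 genes were lower per protease UMI in the section labelled KPC-shZEB1. Cel was at 65.0 and 80.1 (log2 ratio -0.30, -0.31 to -0.29). Amy2a5 was at 0.454 and 0.579 (-0.35, -0.43 to -0.27). Pnliprp2 was at 0.322 and 0.479 (-0.58, -0.67 to -0.48). Summed over the 4 genes of fat digestion (Pnlip, Clps, Cel and Pnliprp2), there were 157 and 115 UMIs per 1000 protease UMIs, a 1.36-fold difference that is smaller than that of Pnlip alone. The direction of this sum depends on the protease Ctrb1, as given below. The direction for Cel and Amy2a5 turns between the CPM and the per-protease scale, while for Pnliprp2 no CPM difference was detected.

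On the per-protease scale, 1 of the 5 genes had a log2 ratio over 1 and 0 had one under -1. Among the same 6639 genes, which included all 5, the shares were 0.166% and 87.4%, and the median log2 ratio was -1.64. Most of those genes are not acinar. Among the 112 genes whose CPM in acinar-rich spots was at least 4 times that of other spots in both libraries, the shares were 6.25% and 32.1%, with a median of -0.65. The genes were selected on this contrast, so these counts support nothing about them.

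The difference in Pnlip ran through nearly all spots. In single acinar-rich spots Pnlip per 1000 protease UMIs had a median of 40.2 in the section labelled KPC-shZEB1 (lowest 1.28, highest 78.6) and 5.27 in the section labelled KPC-shV (lowest 0, highest 28.0). The 5th percentile of the first was 17.7 and the 95th percentile of the second was 14.4. Of the 322 spots labelled KPC-shV, 2 lay above that 5th percentile, and 760 of the 786 spots labelled KPC-shZEB1 (96.7%) lay above that 95th percentile. Thus the bulk of the spots did not overlap, although both ranges did. Pnlip was chosen on this contrast, and the overlap was computed for no gene beyond the 5, so it supports nothing further. Depth and the makeup of the protease UMIs also differed between the sections, and the overlap was not computed again with these matched. Within the section labelled KPC-shV the spots also spread more, with an SD of 1.16 on the log2 scale against 0.62. A spot held a median of 23 Pnlip UMIs there against 1166, so that counting error is larger in these spots and its part in the spread was not tested.

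**Figure D1:**
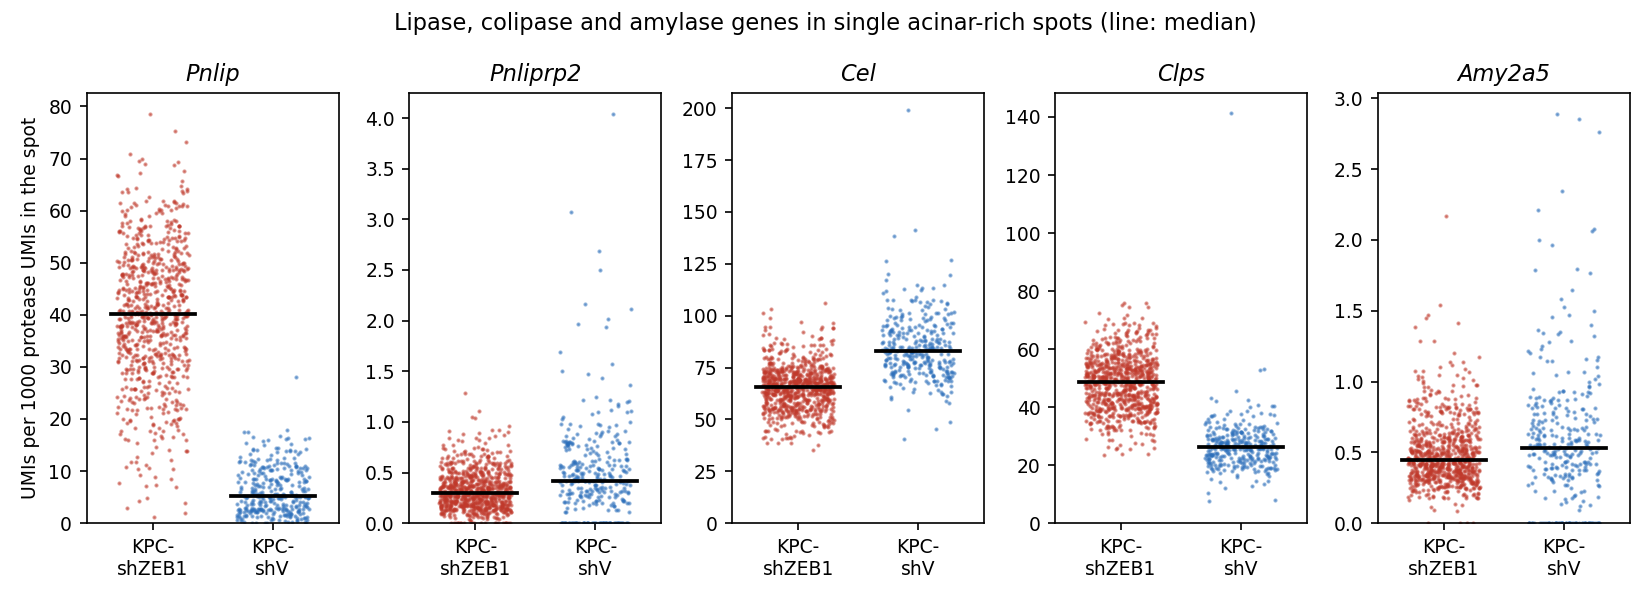
UMIs of each gene per 1000 protease UMIs (vertical axes, each starting at 0) in every acinar-rich spot, 786 spots of the section labelled KPC-shZEB1 and 322 of the section labelled KPC-shV, with the median as a line. Pnlip and Clps lie higher in the former (medians 40.2 against 5.27 and 48.7 against 26.2) and Cel lies lower (65.5 against 83.1), and spots are not replicates.

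Clps showed the same order with more overlap. Its spots had a median of 48.7 (lowest 23.6, highest 76.0) and 26.2 (lowest 7.79, highest 141). Of the 786 spots labelled KPC-shZEB1, 685 (87.2%) exceeded the 95th percentile of the other library, 37.5. Cel, with medians of 65.5 (35.4 to 106) and 83.1 (40.6 to 199), was shifted the other way, and 373 of the 786 spots (47.5%) lay below the 5th percentile of the section labelled KPC-shV, 64.9. Relative to the proteases Cel varied least of the 5 from spot to spot, with a log2 SD of 0.24 and 0.25. Amy2a5 and Pnliprp2 were read too thinly per spot to order single spots. Their spots labelled KPC-shV held a median of 3 and 2 UMIs, and 54 and 63 of the 322 spots held 0.

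The proteases differed among themselves too. Ctrb1, a chymotrypsinogen, made up 36.9% of the protease UMIs in the acinar-rich spots labelled KPC-shZEB1 and 63.0% in those labelled KPC-shV, whereas the elastase Cela1 made up 3.62% and 0.341%. With Ctrb1 left out of the proteases, the log2 ratio of Pnlip was 1.57, that of Clps was 0.12, and those of Cel, Amy2a5 and Pnliprp2 were -1.07, -1.12 and -1.34. The excess of Clps thus rested mostly on the inclusion of Ctrb1. Leaving it out changes only the divisor, so that every log2 ratio falls by the same amount. That fall is larger than the log2 ratio of the 4 summed genes of fat digestion (0.44), whose excess thus rested on Ctrb1 too. By CPM, 1 of the 11 protease genes that passed the minimum of 100 UMIs (Cela1, 4.02) had a larger log2 ratio than Pnlip, and 4 had a larger one than Clps. For Cel, Amy2a5 and Pnliprp2 it was 10 of 11 each, all but Ctrb1 (-0.16).

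Among the 112 acinar-enriched genes Pnlip ranked 2nd by its ratio per protease UMI. The largest were Cela1 (log2 ratio 3.41), Pnlip, the trypsinogen Try4 (2.17), the chymotrypsinogen Ctrc (1.45) and Pla2g1b (1.42), which encodes the pancreatic phospholipase A2. Clps ranked 8, Cel 42, Amy2a5 43 and Pnliprp2 53. The smallest were Cblif (-3.33), Bex2 (-3.04), Mia (-2.62), Fut1 (-2.56) and Reg3a (-2.35). A further gene of fat digestion, Pla2g1b, was at 4252 and 1043 CPM, so that it lay on the side of Pnlip and Clps.

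**Figure D2:**
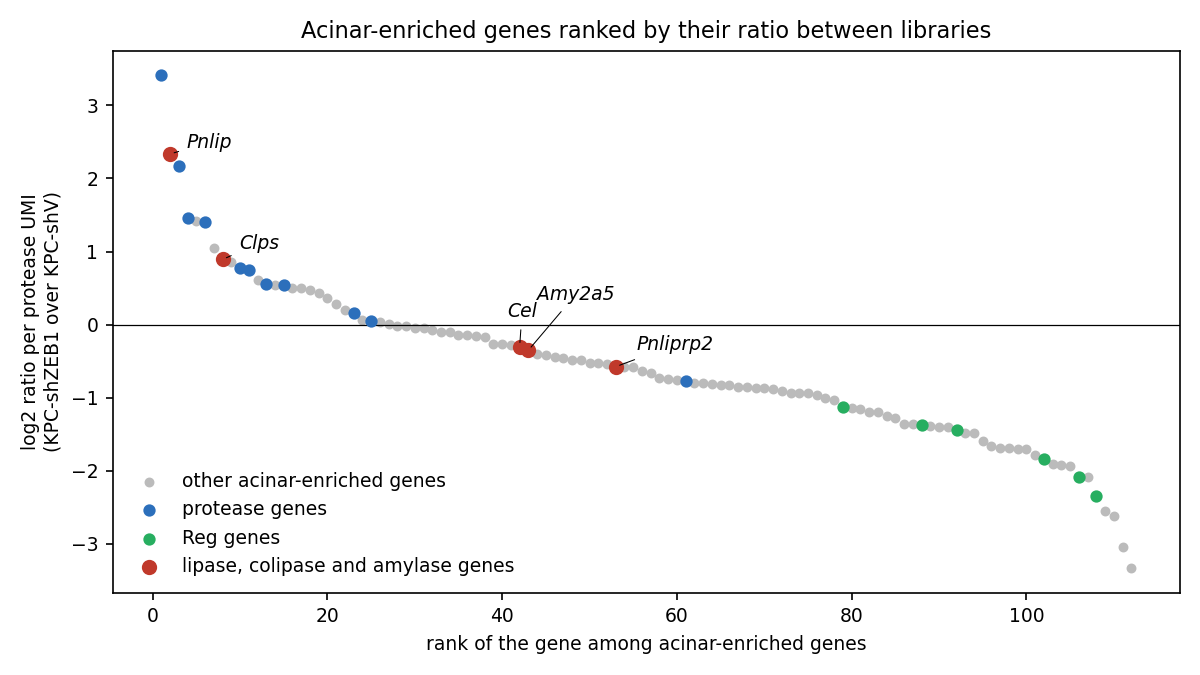
Log2 ratio per protease UMI (vertical axis, KPC-shZEB1 over KPC-shV) of the 112 acinar-enriched genes against their rank. Pnlip (2.33) and Clps (0.89) stand at ranks 2 and 8 of the 112, Cel, Amy2a5 and Pnliprp2 (-0.30 to -0.58) in the middle, and the 6 Reg genes at -1.12 or lower.

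Part of the tissue difference between the sections could be matched by comparing spots with a similar share of protease UMIs. In spots with 10% to 20% of UMIs from proteases (41 and 104 spots), Pnlip was at 22.2 and 2.43 per 1000 protease UMIs, a log2 ratio of 3.19 (3.07 to 3.31). The log2 ratio was 2.54 at 20% to 30% and 1.82 at 30% to 40%. In spots over 40% (579 and 27 spots) Pnlip was at 43.7 and 12.6, a log2 ratio of 1.79 (1.76 to 1.83). Among acinar-rich spots, Pnlip was thus higher relative to the proteases where proteases took more of the spot, in both libraries. The log2 ratio between libraries was smaller there. Below 10% this order did not hold. Pnlip was at 21.8 and 1.73 per 1000 protease UMIs at 1% to 10%, at 33.6 and 3.15 at 0.1% to 1%, and at 37.9 and 18.9 up to 0.1%, where the log2 ratio was 1.003 (0.83 to 1.18). Clps changed little along the same range, from 43.3 to 49.4 in the section labelled KPC-shZEB1 and between 25.6 and 29.1 in the section labelled KPC-shV. Cel kept a log2 ratio between -0.43 and -0.15. For Amy2a5 all 4 intervals included 0, the widest being that at 10% to 20% (-0.23 to 0.42). Depth moved with these ranges, from a median of 40577 and 14406 UMIs at 10% to 20% to 72475 and 44533 over 40%, and its part was not tested.

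**Figure D3:**
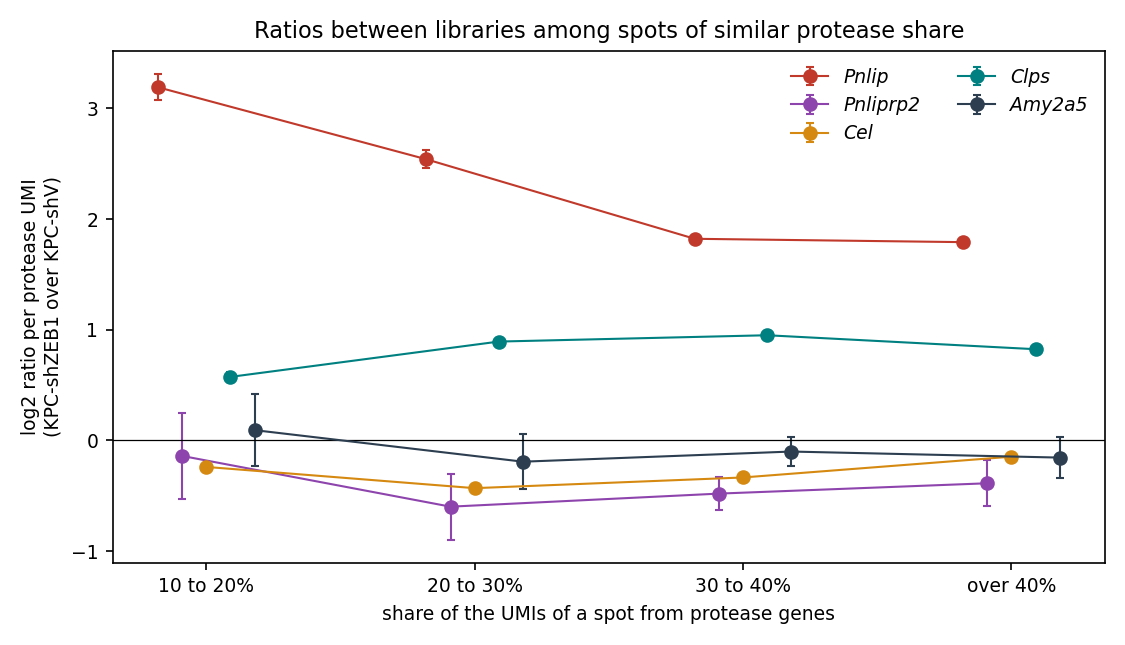
Log2 ratio per protease UMI (vertical axis, KPC-shZEB1 over KPC-shV) of each gene in 4 ranges of the share of UMIs from protease genes (horizontal axis), with 95% intervals for counting error as bars. Pnlip goes from 3.19 to 1.79 along the ranges, while Clps stays between 0.57 and 0.95 and the others lie near or below 0.

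The Reg genes, secreted proteins that acinar cells are known to make in large amounts in pancreatitis, set a further order among the spots. Summed over 6 Reg genes, acinar-rich spots held a median of 143 Reg UMIs per 1000 protease UMIs in the section labelled KPC-shZEB1 (5th to 95th percentile 74.4 to 509) and 503 in the section labelled KPC-shV (347 to 784). The spots of each library were divided into quartiles by this value. From the lowest to the highest quartile, Pnlip per 1000 protease UMIs was 46.8, 43.6, 40.4 and 28.9 in the section labelled KPC-shZEB1 and 11.3, 8.0, 4.96 and 2.07 in the section labelled KPC-shV. Pnlip per protease UMI was lower in each quartile with more Reg UMIs per protease UMI, in both sections. Both values are divided by the same protease UMIs, and the part of this shared divisor was not tested. Clps showed no such order, with 51.5, 48.2, 48.6 and 48.3 in the first library and 26.9, 24.7, 26.4 and 29.8 in the second. Cel stayed between 63.3 and 67.1 in the first and went from 73.7 to 90.0 and 88.2 in the second. Median depth was 72078, 81290, 55228 and 53473 UMIs in the quartiles of the first library and 33089, 23300, 15080 and 20045 in those of the second, and the part of depth was not tested.

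**Figure D4:**
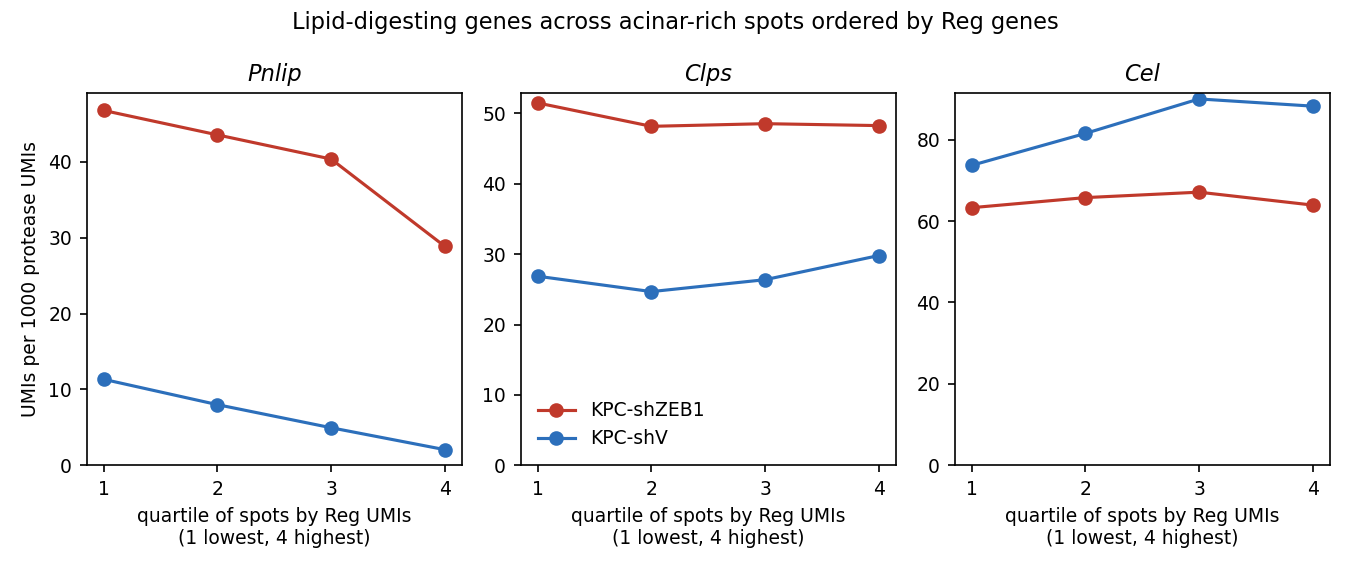
UMIs of Pnlip, Clps and Cel per 1000 protease UMIs (vertical axes, each starting at 0) in acinar-rich spots divided into quartiles by Reg UMIs per protease UMI within each library (horizontal axes). Pnlip is lower where Reg UMIs per protease UMI are higher in both libraries (46.8 to 28.9 and 11.3 to 2.07). Clps lies between 48.2 and 51.5 and between 24.7 and 29.8, and both axes share the protease UMIs.

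Where the libraries overlapped in Reg level, Pnlip differed too. In spots with 300 to 400 Reg UMIs per 1000 protease UMIs (73 and 48 spots), Pnlip was at 31.3 and 12.0, a log2 ratio of 1.38 (1.34 to 1.41). At 400 to 600 (83 and 158 spots) it was at 22.5 and 7.77, a log2 ratio of 1.54 (1.50 to 1.57). Clps had log2 ratios of 0.85 and 0.89 in these ranges and Cel -0.14 and -0.46. Among spots of like Reg level the difference in Pnlip was thus smaller than over all acinar-rich spots and that in Clps was about the same size. A further range, 200 to 300, held 110 and only 3 spots, with log2 ratios of 1.17 for Pnlip, 0.84 for Clps and -0.17 for Cel. All of these ranges were chosen after their values were seen. Depth was not matched, with a median of 63095 and 36899.5 UMIs at 300 to 400 and 48281 and 22315 at 400 to 600. Its part was not tested.

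Across acinar-rich spots, the genes most like each of the 5 were sought among 5204 genes, by the lower of the correlations in the 2 libraries. The points of each correlation are spots of 1 section that share depth and tissue makeup, so that r is only a description. Pnlip was most like the chymotrypsin-like gene Ctrl (r 0.91 over 786 spots and 0.83 over 322), the elastase Cela2a (0.91 and 0.81) and 2210010C04Rik (0.90 and 0.78). Clps was most like the ribonuclease gene Rnase1 (0.93 and 0.88), the trypsinogen Prss2 (0.88 and 0.86) and 2210010C04Rik (0.93 and 0.84). Genes like Cel included the elastases Cela2a (0.89 and 0.88) and Cela3b (0.86 and 0.89). For Pnliprp2 (Ctrb1, Reg1 and Cel) and Amy2a5 (among others Cel and Ctrb1) the lower r was 0.50 at most, over counts of a few UMIs per spot, and is no finding. Pnlip and Clps were correlated at 0.87 and 0.69. With Reg3b, by CPM, Pnlip was correlated at -0.54 in the section labelled KPC-shZEB1 and 0.30 in the section labelled KPC-shV. A negative r with Reg3b in the section labelled KPC-shZEB1 was not particular to Pnlip. It was -0.45 for Clps, -0.41 for Cel and -0.12 for Amy2a5, and near 0 for Pnliprp2 (-0.005). In the section labelled KPC-shV, Cel, Clps, Pnliprp2 and Amy2a5 were also positively correlated with Reg3b (0.63, 0.57, 0.42 and 0.37). CPM of each gene depends on how much of a spot is acinar tissue, and the part of this in r was not tested. Over the Reg quartiles of that section, Pnlip by CPM was 4445, 2682, 1274 and 337, and Cel 28880, 27327, 23123 and 14359. The quartiles themselves still use the protease divisor.

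Outside acinar-rich spots the enzyme genes were read at low levels. Pnlip stood at 93.2 and 3.01 CPM, Clps at 171 and 21.05 CPM and Cel at 245 and 56.6 CPM. After each spot was thinned to 5000 UMIs (4 and 185 shallower spots left out of all spots), Pnlip was detected in 27.7% of 1431 other spots in the section labelled KPC-shZEB1 (25.4% to 30.1%) and 1.60% of 3071 in the section labelled KPC-shV (1.18% to 2.10%). Without thinning it was detected in 87.7% and 12.3% of other spots, whose median depth was 58602.5 and 55667.5 UMIs. In acinar-rich spots thinned in the same way the shares were 99.9% and 92.2%. Relative to the proteases of the other spots, Pnlip was at 26.3 and 4.52 per 1000, Clps at 48.3 and 31.6 and Cel at 69.1 and 85.1. Summed over these spots, the ratios of Clps and Cel to proteases were thus close to those in acinar-rich spots, and that of Pnlip was lower in both libraries. In spots up to 0.1% proteases (784 and 2953 spots), however, Pnlip was at 37.9 and 18.9, the latter above the 8.31 of acinar-rich spots. Amy2a5 (0.841 and 1.89) and Pnliprp2 (0.764 and 2.13) were higher per 1000 protease UMIs than in acinar-rich spots, over few UMIs. Free RNA from acinar tissue, or acinar cells in these spots, was not tested. Amy2a5 and Pnliprp2 were between 1.26 and 2.98 CPM there. The 8 intestine and liver genes listed ranged from 0.759 CPM (Sis) to 182 CPM (Vil1) in these spots of the section labelled KPC-shZEB1 and from 0.596 CPM (Fabp2) to 131 CPM (Vil1) in those of the other, so that they set no single background level.

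Enzymes that handle lipids inside cells or in blood were also read. Of 14 related lipase genes, 4 had at least 100 UMIs in the acinar-rich spots of both libraries. By CPM, 0 of these had a log2 ratio over 1, 2 had one under -1, and the median was -1.02. This is near the share (52.5%) and the median (-1.04) of all genes. Lpl, which encodes the lipoprotein lipase of capillary walls, was at 43.1 and 116 CPM (log2 ratio -1.42). Lipa, a lysosomal lipase gene, was at 14.2 and 29.2 CPM (-1.04), and Mgll, the monoglyceride lipase gene, was at 23.6 and 47.1 CPM (-0.999). Pnpla2, a lipase gene of lipid droplets, was at 9.01 and 13.4 CPM (-0.57).

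Of 10 genes for starch, glycogen and sugar breakdown, 6 passed the same minimum, of which 0 had a CPM log2 ratio over 1 and 4 one under -1 (median -1.55), beside the 52.5% of all genes. Amy1, an amylase gene with 0.927% of the Amy2a5 windows in common, was the acinar-enriched one. It was at 500 and 459 CPM (log2 ratio 0.12, 0.07 to 0.17), and at 1.09 and 1.53 per 1000 protease UMIs (-0.49, -0.54 to -0.43). Both amylase genes were thus close between the libraries by CPM and, summed over acinar-rich spots, lower per protease UMI in the section labelled KPC-shZEB1. For Amy2a5 no such difference beyond counting error was seen within any range of protease share among acinar-rich spots. Amy1 was not compared in these ranges. The lysosomal glucosidase gene Gaa had a CPM log2 ratio of -1.85 and the glycogen phosphorylase gene Pygb one of -0.81.

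Among 12 further exocrine genes, 11 passed the minimum, of which 4 had a CPM log2 ratio over 1 and 1 one under -1 (median 0.19). Over all genes the shares were 0.346% and 52.5%. Rnase1 was at 25776 and 11122 CPM (1.21), the lectin gene Zg16 at 19349 and 8955 CPM (1.11) and Sycn, a zymogen granule protein gene, at 13829 and 5030 CPM (1.46). Gp2, the granule membrane protein gene, was at 11005 and 13228 CPM (-0.27). Of the 11 protease genes, 8 had a CPM log2 ratio over 1 and 0 one under -1, with a median of 1.35, beside the same shares of all genes.

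Of 8 transcription factor genes of acinar cells, 7 passed the minimum, with 0 CPM log2 ratios over 1 and 1 under -1 (Rbpj, -2.04), and a median of -0.53 beside -1.04 over all genes. For this and the next 2 lists, the shares of all genes were 0.346% over 1 and 52.5% under -1. Ptf1a, the DNA-binding part of PTF1, was at 33.2 and 47.9 CPM (-0.53), and Rbpjl, its acinar partner, at 118 and 217 CPM (-0.88). Nr5a2 was at 25.02 and 30.1 CPM (-0.27). Bhlha15, which encodes the secretory cell factor Mist1, was at 35.5 and 24.1 CPM (0.56). Of 10 genes for the stimulation and release of secretion, 6 passed, with 0 over 1 and 1 under -1, beside the 52.5% of all genes. Cckar, which encodes the receptor for cholecystokinin, was at 62.4 and 71.6 CPM (-0.20), Rab3d at 34.1 and 67.2 CPM (-0.98), Vamp8 at 79.2 and 119 CPM (-0.59) and Rab27b at 22.8 and 18.5 CPM (0.30). Of 11 endoplasmic reticulum and translation genes, 10 passed, with 0 over 1 and 4 under -1 (median -0.56), beside the 52.5% of all genes.

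Markers of other cells and of tissue stress differed as well in the acinar-rich spots, where 52.5% of all genes had a CPM log2 ratio under -1. The 7 Reg and stress genes summed to 75244 and 144574 CPM (log2 ratio -0.94), with 0 over 1 and 3 under -1. Fibroblast genes summed to 1817 and 9674 CPM (-2.41), and 6 of 6 were under -1. Islet genes summed to 108 and 819 CPM (-2.92), and 5 of the 5 that passed were under -1. Leukocyte genes summed to 70.7 and 217 CPM (-1.62). Only 2 of 6 passed, Ptprc (-1.51) and Cd68 (-1.68), both under -1. Below the minimum, S100a8 was at -2.46 and the T cell gene Cd3e at -0.58 (-1.26 to 0.17). Ductal genes summed to 1285 and 4243 CPM (-1.72), mostly Spp1 and Clu, and tumor epithelium genes to 185 and 470 CPM (-1.34). With 3 of 6 and 2 of 4 under -1, these lists were near the share of all genes, and the ductal keratin gene Krt19 was at 20.9 and 24.9 CPM (-0.25). Adipocyte genes summed to 27.3 and 109 CPM, nearly all Fabp4, and their defining markers Adipoq and Plin1 were under 1 CPM in both libraries (at most 0.781). Intestine and liver genes summed to 6.78 and 25.5 CPM, with Fabp2 at 0 UMIs in both. No marker in the other marker lists was at 0, and the counts are of the genes that passed the minimum. The acinar-rich spots labelled KPC-shV thus held a larger share of fibroblast and islet marker RNA, and of leukocyte marker RNA as a sum. The ductal and tumor epithelium sums were larger there too. The part of these markers in the differences per protease UMI was not tested.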

How the data were processed

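Spatial libraries of 1 tumor section labelled KPC-shZEB1 and 1 labelled KPC-shV were used. Methanol-fixed frozen tissue was read with Visium CytAssist probes. The authors processed the reads with Space Ranger 2.0.1 on mm10 (per the labels) and deposited, for the spots over tissue, UMI counts of each gene that were not normalized. The libraries held 140493626 and 172059528 UMIs. Images, spot positions and single-cell data were not used.

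From the deposited counts, UMIs were summed over spots and given as CPM, or per 1000 UMIs of 13 protease genes (16 listed). Ratios took exact conditional binomial intervals, levels exact Poisson and shares exact binomial ones, all at the 95% level. No test was possible with 1 library per condition, and no doublet caller or deconvolution was run on spots. A share of 0 allows up to 3 spots. Shares and medians over genes took those that had 100 UMIs or more in the spots compared of each library. For genes of the lists, ratios were computed below this minimum too. Correlations used log2 of CPM with 1 added, for genes over 10 CPM. On counts simulated with counting error only (4279 genes), 194 of 194 changed genes came out in the right direction. The simulation set only large changes and held no difference between sections, mice or protease makeup, so it checks the arithmetic only.

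The genes and the 16 gene lists were chosen with earlier results of these data known. Named were the 5 genes, at most 4 genes per list with the most UMIs, 3 most similar genes each, and the 5 largest and 5 smallest ratios among acinar-enriched genes. Some genes that this rule names are not reported here. The tools were numpy 2.4.6 and scipy 1.17.1 in Python 3.11.15, with figures from matplotlib 3.10.9. Gene positions were from GENCODE M21 (19451 of 19465 features matched by identifier). Alternatives were other spots, scalings and proteases.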

Additional observations from a re-analysis of the deposited data

How the results depend on the processing

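Each library covers 1 section, so that section, mouse and condition cannot be told apart, and the few UMIs of Amy2a5 and Pnliprp2 per spot limit their values to sums over spots. No paired analysis was possible because each condition had 1 library. All values here are log2 ratios (KPC-shZEB1 over KPC-shV). Per protease UMI, Pnlip was 2.36 in spots over 5% proteases, 2.21 over 20% proteases, 2.28 over 20% exocrine UMIs, 2.28 in spots of at least 20000 UMIs and 2.36 over all spots. Cel was -0.29 over 20% proteases and -0.27 in spots of at least 20000 UMIs, and Clps was 0.91 over 20% proteases. Over all spots Clps was 0.88, Pnliprp2 -0.76 and Amy2a5 -0.48. As ratios of the median over spots, Pnlip was 2.80, Pnliprp2 -0.998, Cel -0.35 and Amy2a5 -0.66. In CPM, Pnlip was 2.94 and Clps 1.50, and the direction turned for Cel (0.31) and Amy2a5 (0.26). For Pnliprp2 the sign turned (0.032, -0.06 to 0.12), with no direction to be told. Without Ctrb1 the values were 1.57 for Pnlip, -1.34 for Pnliprp2, -1.07 for Cel, 0.12 for Clps and -1.12 for Amy2a5. As alternatives chosen after seeing the data, spots with 30% to 40% proteases gave 1.82, -0.48, -0.33, 0.95 and -0.10 in the same order. Spots with 300 to 400 Reg UMIs per 1000 protease UMIs gave 1.38, -0.27, -0.14, 0.85 and 0.084. The last value, of Amy2a5, turned in sign, but its interval (-0.10 to 0.27) gave no direction. For the level over all spots, leaving out acinar-rich spots gave 4.96, 0.93, 2.11, 3.02 and 1.24 in that order, median-of-ratios scaling gave 6.56, 3.44, 3.90, 5.08 and 3.72, exocrine genes out of the total gave 6.47, 3.35, 3.81, 4.99 and 3.63, and the mean of spot CPM gave 5.12, 1.89, 2.25, 3.49 and 2.20. The cause of these shifts was not tested. The other 15 values of these results stayed within the counting interval of the value reported. Of 30 values of the shares of other spots with a UMI, 21 left their interval, all of those without thinning or with at least 2 UMIs asked for, and with another thinning only that of Pnliprp2 labelled KPC-shV (0.749%).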
